A study of Homo sapiens with 23 samples.

Results

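The genes described here are 9 components of the epithelial tight junction, the claudins CLDN1, CLDN2, CLDN3, CLDN4, CLDN7, CLDN12 and CLDN15, the MARVEL protein OCLN and the scaffold TJP1. They were picked by gene symbol, each symbol matched 1 identifier, and together they are 9 of the 60564 gene identifiers of the deposited tables. Their levels were read from mRNA-seq of 23 libraries of 2 established human tumour lines, Caco-2 (colorectal adenocarcinoma, used as a model of gut epithelium) and HepG2 (hepatocellular carcinoma, used as a model of hepatocytes), grown in the integrated gut-liver-on-a-chip (iGLC). Each line was mono-cultured or co-cultured with the other line in a linked chamber, and was kept for 1 day either with 1 mM free fatty acids (FFAs, palmitic and oleic acid mixed at 1:2) or without FFAs (control). Caco-2 cells gave 3 libraries each for mono-culture control, mono-culture FFAs and co-culture FFAs, and 2 for co-culture control. HepG2 cells gave 3 libraries in each of the same 4 groups. No group carried a genetic change relative to another of its line. The methods of the study describe the mRNA-seq as done in independent experiments, but the sources used here do not tie a library or a replicate number to an experiment or a chip, so every p-value below measures the spread between these libraries, which may be technical in part.

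A tight junction is a belt of strands at the apical edge of epithelial cells that seals the space between neighbours and so sets what passes between cells. Claudins are the proteins that build the strands. Some, such as CLDN1, CLDN3 and CLDN4, tighten the seal, while CLDN2 and CLDN15 form pores for small cations and water. OCLN spans the membrane with 4 passes like the claudins but belongs to another family, and TJP1 (ZO-1) is the scaffold under the membrane that ties claudins and OCLN to actin. In the gut these proteins make the barrier against luminal content. In the liver they separate bile canaliculi from blood.

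All 9 genes are protein-coding. In GENCODE v44 on GRCh38, the assembly the authors mapped to, 4 of them lie on chromosome 7. CLDN3 (ENSG00000165215, chr7:73768997-73770270, minus strand) and CLDN4 (ENSG00000189143, chr7:73799542-73832690, plus strand) are neighbours, with 29271 bases between these gene spans. The canonical transcript of each has 1 exon, and that of CLDN4 starts further into its span, just after chr7:73830995. CLDN12 (ENSG00000157224, chr7:90383721-90513402, plus strand, 4 exons) encodes a claudin linked to calcium passage in the gut. CLDN15 (ENSG00000106404, chr7:101232092-101238820, minus strand, 5 exons) encodes the sodium pore of the small intestine. CLDN1 (ENSG00000163347) is at chr3:190305707-190322446 on the minus strand, with 4 exons. CLDN2 (ENSG00000165376), whose protein forms cation pores in leaky epithelia, is at chrX:106900164-106930861 on the plus strand, with 2 exons. CLDN7 (ENSG00000181885), a claudin also found along the lateral membrane of gut cells, is at chr17:7259903-7263983 on the minus strand, with 4 exons. OCLN (ENSG00000197822) is at chr5:69492292-69558104 on the plus strand, with 9 exons, and TJP1 (ENSG00000104067) is at chr15:29699367-29968915 on the minus strand, with 28 exons.

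The lines differed most in CLDN7, CLDN3, CLDN4 and OCLN, so the 250 bases before the start of these 4 genes are shown here (RefSeq, GRCh38.p14, written along the strand of the gene). They lie at chr17:7262479-7262728 on the minus strand for CLDN7, chr7:73770271-73770520 on the minus strand for CLDN3, chr7:73830746-73830995 on the plus strand for CLDN4 and chr5:69492540-69492789 on the plus strand for OCLN. Capitals mark CAGGTG or its reverse complement CACCTG. This is one form of the CANNTG E-box, and it is the form that repressors of the SNAI family are known to bind in promoters of junction genes.
CLDN7: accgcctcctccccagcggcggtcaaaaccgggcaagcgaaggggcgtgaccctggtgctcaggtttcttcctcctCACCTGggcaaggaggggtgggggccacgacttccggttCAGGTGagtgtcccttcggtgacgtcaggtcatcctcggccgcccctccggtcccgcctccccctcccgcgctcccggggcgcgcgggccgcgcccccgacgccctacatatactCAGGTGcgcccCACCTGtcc
CLDN3: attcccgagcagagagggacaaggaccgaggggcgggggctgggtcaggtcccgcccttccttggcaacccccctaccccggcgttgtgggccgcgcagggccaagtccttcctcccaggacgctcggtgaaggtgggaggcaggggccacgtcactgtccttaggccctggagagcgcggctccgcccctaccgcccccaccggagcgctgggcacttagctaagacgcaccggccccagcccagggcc
CLDN4: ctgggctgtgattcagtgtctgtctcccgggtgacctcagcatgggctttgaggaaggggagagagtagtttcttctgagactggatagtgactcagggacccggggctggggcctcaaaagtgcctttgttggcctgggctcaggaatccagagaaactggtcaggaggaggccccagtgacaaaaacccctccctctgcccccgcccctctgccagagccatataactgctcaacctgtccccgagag
OCLN: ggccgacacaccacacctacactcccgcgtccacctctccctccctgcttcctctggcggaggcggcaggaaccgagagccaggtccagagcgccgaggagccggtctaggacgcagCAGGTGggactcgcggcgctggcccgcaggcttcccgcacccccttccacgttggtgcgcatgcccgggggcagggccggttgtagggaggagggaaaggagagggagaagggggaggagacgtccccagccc

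The CLDN7 stretch held 4 copies, beginning 174, 135, 20 and 9 bases before the start, and a further copy lay in the 50 bases after it. OCLN had 1 copy, beginning 133 bases before the start, and 1 after it. CLDN3 had no copy before the start and 1 after it. CLDN4 had none in either stretch. No copy was found in the 250 bases before the start nearest the canonical transcript of CLDN1, CLDN2, CLDN12, CLDN15 or TJP1. For CLDN2 that start was 2042 bases from the canonical one, and for the other 8 genes it was the same base. Of 34943 RefSeq windows of 250 bases, 6116 (17.5%) held at least 1 copy and 42 (0.12%) held at least 4. These matches describe the letters only. The motif was chosen with the expression values known, and binding was not measured here.

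Values are TPM, the share of each gene among all transcripts of a library, corrected for transcript length and scaled to the same total in each library, and so levels of different genes can be compared within a library. TPM do not hold read numbers, so the depth of the libraries is unknown and counting error cannot be stated. The number of genes detected above 0 TPM ranged from 19259 to 23689. The labelled lines were checked against 6 markers each. CDX2 and CDH17, which mark intestinal epithelium, were at 60.4 to 136 TPM and 354 to 480 TPM in Caco-2 libraries and at most 0.73 and 2.75 TPM in HepG2 libraries, while ALB was at 20460 TPM or above in HepG2 libraries and at most 768.5 TPM in Caco-2 libraries. GPA33, another gut marker, reached only 2.47 TPM in Caco-2 cells and was under 1 TPM in some of those libraries. The HepG2 libraries numbered 3 stood apart. In the deviations from their group means they correlated with each other at Pearson's r of 0.462 to 0.601 across the genes tested, which are not independent, against 0.028 to 0.520 among libraries numbered 1 and among those numbered 2. Values without all libraries numbered 3 are also given for the line differences of CLDN12 and CLDN15 and for the CLDN3 co-culture effect between lines.

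In Caco-2 cells, CLDN4 was the most abundant of the 9 genes, at 1322 ± 322 TPM (mean ± SD, n = 11). CLDN7 followed at 433 ± 19.5 TPM and OCLN at 338 ± 66.6 TPM. The ranges of CLDN7 and OCLN overlapped, and CLDN7 was above OCLN in 9 of 11 libraries. A middle tier held TJP1 at 67.5 ± 5.63, CLDN1 at 53.2 ± 8.45, CLDN3 at 40.9 ± 10.3 and CLDN12 at 34 ± 3.41 TPM, and each overlapped the next in order. The pore-forming claudins were last, CLDN2 at 3.17 ± 2.04 and CLDN15 at 2.57 ± 0.825 TPM, and their ranges overlapped as well. CLDN4 alone made up 56.98% of the summed TPM of the 9 genes on average.

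HepG2 cells also had CLDN4 as the most abundant member, at 186 ± 37.1 TPM (n = 12), which was 51.8% of the sum on average. CLDN12 (55.1 ± 19.8 TPM) and OCLN (52.9 ± 6.92 TPM) came next and overlapped. CLDN1 (28.6 ± 4.14 TPM) and TJP1 (26.7 ± 2.86 TPM) formed the next tier and overlapped too. CLDN15 (3.64 ± 1.07), CLDN3 (3.11 ± 1.75) and CLDN2 (1.39 ± 0.435 TPM) lay low, each overlapping the next. CLDN7 was at the bottom, at 0.662 ± 0.725 TPM. The 9 genes summed to 1873 to 3001 TPM in Caco-2 and to 280 to 411 TPM in HepG2 libraries, ranges that do not overlap.

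**Figure D1:**
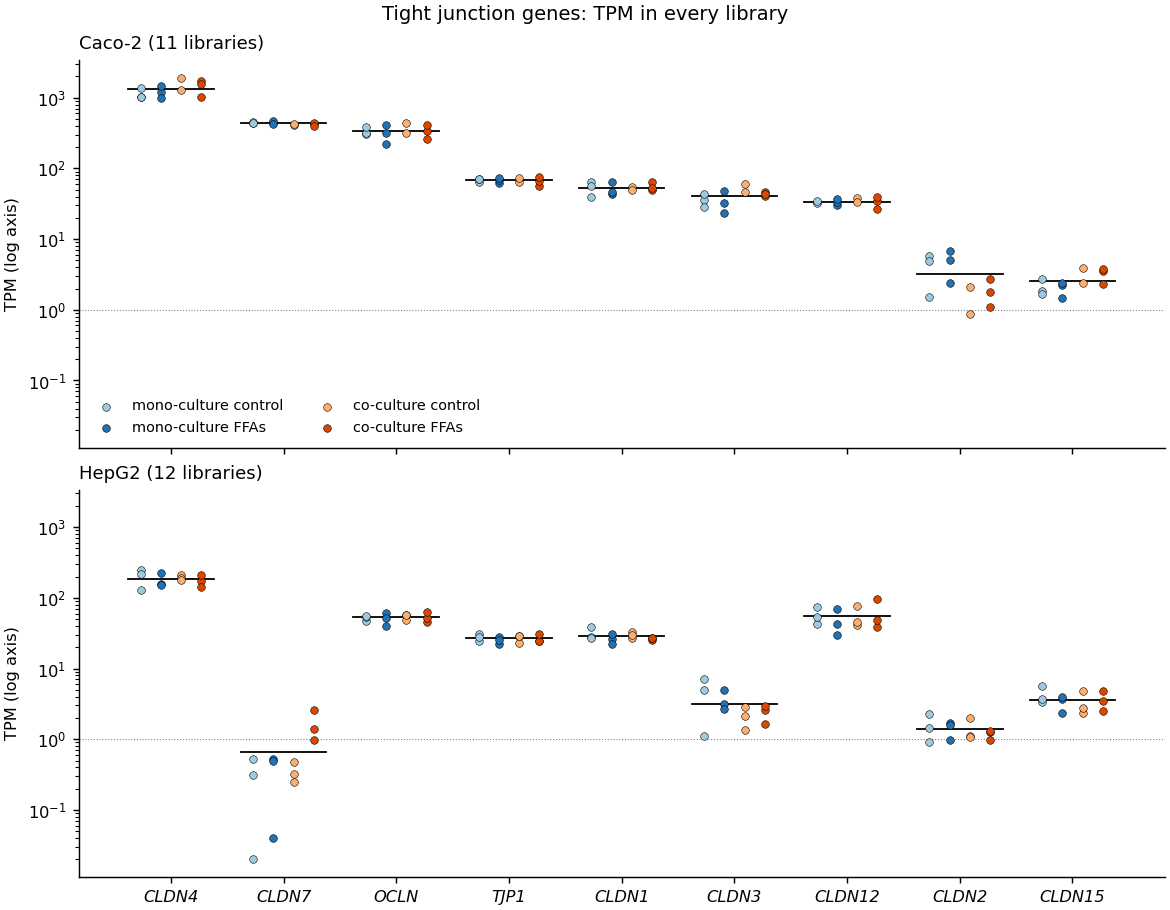
TPM of the 9 genes in every library (log axis), Caco-2 above and HepG2 below; points are libraries coloured by culture and treatment, black lines are means over all libraries of the line, and the dotted line is 1 TPM. CLDN4 leads in both lines, whereas CLDN7 is second in Caco-2 cells (433 TPM) and last in HepG2 cells (0.662 TPM).

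All 9 genes differed between the lines, 7 higher and 2 lower in Caco-2 cells (limma on log2(TPM + 1), all 8 groups in one fit, mean of the 4 Caco-2 groups minus mean of the 4 HepG2 groups, adjusted p under 0.05 by Benjamini-Hochberg over the 16495 genes that averaged 1 TPM or more in some group). Such calls were common, since 49.8% of all genes tested were called higher and 29.2% lower in Caco-2 cells. With 9 members against that background, nothing is read from the count of called members. The median difference was 1.31 over the members and 0.24 over all genes tested. In 6 members, CLDN1, CLDN3, CLDN4, CLDN7, OCLN and TJP1, the lowest Caco-2 library was above the highest HepG2 library, as it was for 28.6% of all genes tested, though CLDN1 overlapped with quantile normalization and with median-of-ratios scaling.

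CLDN7 had the largest difference among the 9. Its lowest, median and highest TPM were 402, 433 and 472 in Caco-2 cells and 0.02, 0.48 and 2.62 in HepG2 cells. No HepG2 library came near a Caco-2 library. The difference was 8.12 ± 0.10 (log2(TPM + 1) ± SE, limma, adjusted p = 6.36e-23), and mean TPM was 655 times higher in Caco-2 cells. In Caco-2 cells CLDN7 was also the steadiest member, with a coefficient of variation of 4.51%, against 8.34% to 64.4% for the others.

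CLDN3 and CLDN4, the chromosome 7 neighbours, were both higher in Caco-2 cells but at very different levels. CLDN3 ran from 23.2 to 59.7 TPM with a median of 43.8 in Caco-2 cells and from 1.10 to 7.12 TPM with a median of 2.75 in HepG2 cells. The difference was 3.45 ± 0.19 (limma, adjusted p = 1.31e-12), 13.1 times in mean TPM. CLDN4 ran from 975.4 to 1920 TPM with a median of 1274 in Caco-2 cells and from 129 to 247 TPM with a median of 184 in HepG2 cells. The difference was 2.83 ± 0.13 (limma, adjusted p = 7.41e-14), 7.09 times in mean TPM. CLDN4 was therefore well expressed in both lines, whereas CLDN3 was near the low pore-forming claudins in HepG2 cells.

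OCLN ran from 220 to 435 TPM with a median of 322 in Caco-2 cells and from 39.4 to 63.7 TPM with a median of 53.0 in HepG2 cells. The difference was 2.65 ± 0.11 (limma, adjusted p = 1.21e-14), 6.39 times in mean TPM. OCLN shares sequence with the copy OCLNP1, and the way reads were divided between them is part of the deposited TPM. OCLNP1 was at 0.78 to 7.08 TPM in Caco-2 libraries, and in HepG2 libraries it was listed at 0 in 9 of 12 and reached at most 1.37 TPM, so the bulk of the signal was assigned to OCLN. TJP1 (55.7 to 75.5 TPM against 22.6 to 30.7 TPM) differed by 1.31 ± 0.07 (limma, adjusted p = 4.46e-13), and CLDN1 (39.4 to 64.5 TPM against 22.1 to 38.5 TPM) by 0.87 ± 0.09 (limma, adjusted p = 4.72e-08).

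The pore-forming claudins and CLDN12 had overlapping ranges between the lines. CLDN2 ran from 0.86 to 6.73 TPM in Caco-2 and from 0.90 to 2.29 TPM in HepG2 cells, and its difference was 0.62 ± 0.18 (limma, adjusted p = 0.00451). That call was lost with quantile normalization, where the difference was 0.31 (limma, adjusted p = 0.131). CLDN15 was lower in Caco-2 cells, by -0.36 ± 0.13 (limma, adjusted p = 0.0200), with 1.47 to 3.85 TPM against 2.32 to 5.67 TPM. The CLDN15 call was lost without the second co-culture control library of Caco-2 cells (-0.29, limma, adjusted p = 0.0722) and without all libraries numbered 3 (-0.28, limma, adjusted p = 0.140). CLDN12 was also lower in Caco-2 cells, by -0.60 ± 0.16 (limma, adjusted p = 0.00197), with 26.6 to 39.0 TPM against 29.7 to 96.2 TPM.

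By condition, the line difference of CLDN2 was 0.91 in mono-culture control and 1.16 in mono-culture FFAs but 0.04 in co-culture control and 0.35 in co-culture FFAs. CLDN7 was at 8.46, 8.37 and 8.30 in the first 3 of these conditions and at 7.36 in co-culture FFAs. In that group alone its low HepG2 values were raised, to 0.97 to 2.62 TPM. CLDN3 ran the other way to CLDN2, at 2.98 and 2.92 in mono-culture and at 4.15 and 3.75 in co-culture. TJP1 and OCLN varied least, from 1.26 to 1.41 and from 2.58 to 2.75. These values describe where the lines differ more or less, and the tests of such changes follow with the co-culture comparisons.

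**Figure D2:**
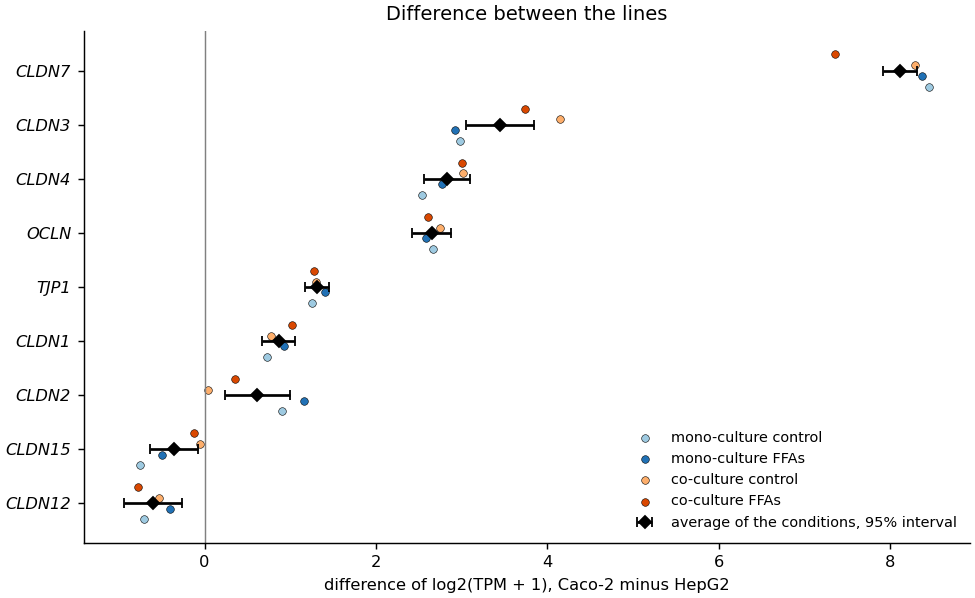
Difference of log2(TPM + 1), Caco-2 minus HepG2, for each gene; black diamonds are the average over the 4 conditions with its 95% interval and coloured points are single conditions. CLDN7 stands alone at 8.12, and CLDN15 and CLDN12 are below 0 at -0.36 and -0.60.

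The other genes of the junction were read from lists of related genes. Of 16 other claudins, 6 passed the filter on TPM, and 3 were called higher and 3 lower in Caco-2 cells. CLDN6, a claudin of early development, was at 0.34 TPM on average in Caco-2 and 33.7 TPM in HepG2 cells, CLDN23 at 25.8 and 1.77 TPM, and CLDN19 at 11.1 and 8.12 TPM. Among 10 other transmembrane proteins, 7 passed the filter, 5 higher and 2 lower. The tricellular protein LSR (415 and 183 TPM) and the adhesion molecule F11R (115 and 42.4 TPM) were higher in Caco-2 cells, and the adhesion molecule CXADR (152 and 198 TPM) was lower. The relatives of OCLN, MARVELD2 at 77.2 and 22.1 TPM and MARVELD3 at 105 and 12.5 TPM, were also higher in Caco-2 cells and were added by name after their values were seen.

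Of 19 plaque scaffolds and polarity proteins, all passed the filter, 12 were called higher and 4 lower in Caco-2 cells. YBX3 (ZONAB, a binder of ZO-1) was at 323 and 319 TPM and was not called. AMOTL2 was at 179 and 18.7 TPM, and CGN (cingulin) at 158 and 3.15 TPM. In the adherens junction, 10 of 10 genes passed the filter, 7 called higher and 1 lower. CDH1 (E-cadherin) was at 756 and 9.17 TPM, CTNNA1 at 348 and 135 TPM and NECTIN2 at 218 and 112 TPM. None of these genes passed the adjusted threshold in any comparison of culture or FFAs below.

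By likeness of pattern (root mean square difference of log2(TPM + 1), each gene centred on its own mean, over 23 libraries and 16494 other genes), CLDN7 was nearest to CDH17 (0.212) and LAMB3 (0.364). TJP1 was nearest to ANO6 (0.10) and CTNNA1 (0.120), OCLN to FREM2 (0.169) and EXPH5 (0.179), and CLDN3 to RBBP8NL (0.322) and CLDN23 (0.347). CLDN4 was nearest to CCL28 (0.234) and DACT2 (0.253), CLDN1 to UMAD1 (0.157) and GOLT1A (0.158), and CLDN12 to ATG9A (0.175) and STAMBPL1 (0.192). CLDN2 was nearest to LHFPL6 (0.293) and UPK1B (0.324), and CLDN15 to SPIRE2 (0.225) and STK36 (0.228). Since the lines differ so widely, this measure is set largely by the line difference.

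In Caco-2 cells, no member passed the adjusted threshold between co-culture and mono-culture, but 3 had an unadjusted p under 0.05, CLDN2 lower and CLDN3 and CLDN15 higher in co-culture. In the same fit (limma, 4 Caco-2 groups, averaged over both treatments, 15081 genes), 0% of all genes were called at the adjusted threshold and 10.5% (1578 genes) had an unadjusted p under 0.05. The median difference was 0.06 over the members and 0.03 over all genes tested.

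CLDN2 was at 5.69, 4.94 and 1.53 TPM in the mono-culture control libraries and at 6.73, 5.02 and 2.38 TPM with FFAs. In co-culture it was at 2.13 and 0.86 TPM in control and at 2.71, 1.78 and 1.10 TPM with FFAs. The mono-culture libraries numbered 1 and 2 were above every co-culture library, while those numbered 3 fell among them. Within a number and treatment, each mono-culture library with a co-culture counterpart was above it. The difference was -0.95 ± 0.31 (limma, adjusted p = 0.356, 95% interval -1.63 to -0.27). With the replicate numbers as a block it was -1.11 (limma, adjusted p = 0.0326), but the sources do not tie the numbers to an experiment.

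CLDN3, a sealing claudin, was at 36.2, 28.4 and 43.9 TPM in mono-culture control and at 23.2, 32.7 and 47.5 TPM in mono-culture FFAs libraries. In co-culture it was at 47.1 and 59.7 TPM in control and at 40.5, 47.1 and 43.8 TPM with FFAs. The groups overlapped through the mono-culture libraries numbered 3. The difference was 0.48 ± 0.17 (limma, adjusted p = 0.394, 95% interval 0.10 to 0.85). CLDN4 was at 1008, 1024 and 1355 TPM in mono-culture control and at 1193, 975.4 and 1488 TPM in mono-culture FFAs libraries, against 1274 and 1920 TPM in co-culture control and 1010, 1733 and 1560 TPM in co-culture FFAs libraries. Its difference was 0.35 ± 0.17 (limma, adjusted p = 0.504, 95% interval -0.02 to 0.72).

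CLDN15, a pore-forming claudin like CLDN2, had the opposite sign to it. It was at 1.83, 2.77 and 1.67 TPM in mono-culture control and at 1.47, 2.27 and 2.41 TPM in mono-culture FFAs libraries. In co-culture it was at 3.85 and 2.40 TPM in control and at 3.55, 3.75 and 2.33 TPM with FFAs. The groups overlapped, and the difference was 0.44 ± 0.18 (limma, adjusted p = 0.437, 95% interval 0.05 to 0.83). The other 5 members, CLDN1, CLDN7, CLDN12, OCLN and TJP1, had differences between -0.07 and 0.13. CLDN7 had the narrowest 95% interval of the 9, from -0.19 to 0.04.

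**Figure D3:**
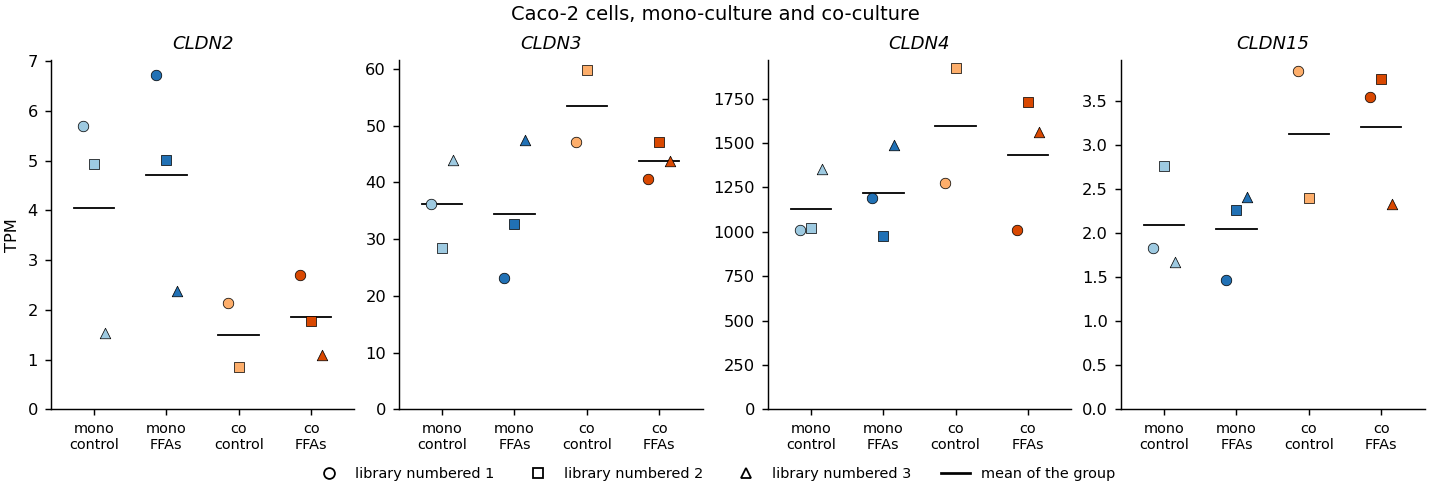
TPM of CLDN2, CLDN3, CLDN4 and CLDN15 in every Caco-2 library by group, with marker shape for the replicate number and a line for the group mean; each axis starts at 0. CLDN2 is highest in mono-culture libraries numbered 1 and 2 (4.94 to 6.73 TPM), and its mono-culture libraries numbered 3 (1.53 and 2.38 TPM) lie among the co-culture libraries.

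Markers of the other line were read beside these values. The 6 HepG2 markers summed to 1813 to 2936 TPM in mono-cultured and 2402 to 3174 TPM in co-cultured Caco-2 libraries, since Caco-2 cells express ALB, APOH and AHSG themselves. TF and SPP1, which Caco-2 cells express little, were at 42.8 and 19.6 TPM in the first co-culture control library and at 132.9 and 39.6 TPM in the first co-culture FFAs library, against at most 10.2 and 1.04 TPM in the other Caco-2 libraries. CLDN2 was higher in those 2 libraries than in the other co-culture libraries of their groups. The library numbered 1 was highest in CLDN2 in the mono-culture groups as well, at 5.69 TPM in control and 6.73 TPM with FFAs. The part of carried-over RNA in the co-culture values was not tested. In such bulk libraries, fewer cells of a type and less RNA per cell cannot be told apart.

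In HepG2 cells, 0 of 9 members passed the adjusted threshold between co-culture and mono-culture, where 0.0561% (8 of 14255 genes) of all genes did so, and 1 member had an unadjusted p under 0.05, as did 12.5% of all genes tested (limma, 4 HepG2 groups, averaged over both treatments). That member, CLDN7, entered the fit only through its highest group, so nothing is read from that count. The median difference was -0.004 over the members and -0.02 over all genes tested.

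CLDN7 was at 2.62, 0.97 and 1.40 TPM in co-culture FFAs libraries. It was at 0.32, 0.25 and 0.47 TPM in co-culture control, at 0.04, 0.53 and 0.49 TPM in mono-culture FFAs and at 0.31, 0.52 and 0.02 TPM in mono-culture control libraries. The co-culture FFAs libraries were above all 9 others. CLDN7 passed the filter of 1 TPM in HepG2 cells only through that group, so these values are given as a description with no test.

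The gut marker CDH17 was at 2.75, 0.58 and 1.79 TPM in the same co-culture FFAs libraries and at 0.05 to 0.76 TPM in the other 9 HepG2 libraries, so that the library highest in CLDN7 was also highest in CDH17. The 6 Caco-2 markers summed to 185 to 205 TPM in co-culture FFAs, 165 to 232 TPM in co-culture control and 209 to 263 TPM in mono-cultured HepG2 libraries, nearly all of it VIL1 and MYO1A, which HepG2 cells express. In the co-culture FFAs libraries CDX2 was at 0.21 to 0.58 TPM, within the range of the other HepG2 libraries, LGALS4 was at most 0.31 TPM and GPA33 was listed at 0. LGALS4 and GPA33 reached only 11.35 and 2.47 TPM in Caco-2 libraries themselves. A small share of Caco-2 RNA would hardly raise them, so nothing is read from their low values here. The part of RNA from Caco-2 cells in the CLDN7 values was not tested.

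CLDN3 had the lowest estimate of the members between co-culture and mono-culture in HepG2 cells, -0.52 ± 0.30 (limma, adjusted p = 0.504, 95% interval -1.18 to 0.13). It was at 4.89, 7.12 and 1.10 TPM in mono-culture control, 3.16, 4.96 and 2.68 TPM in mono-culture FFAs, 2.11, 2.82 and 1.36 TPM in co-culture control and 2.57, 2.96 and 1.63 TPM in co-culture FFAs libraries. The library numbered 3 was lowest in each of the 4 groups. The 7 members other than CLDN3 and CLDN7 had differences between -0.11 and 0.13.

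Several members differed between the HepG2 libraries numbered 3 and the others. CLDN12 was at 42.4, 53.0 and 74.7 TPM in mono-culture control, 29.7, 43.2 and 70.4 TPM in mono-culture FFAs, 41.3, 45.1 and 77.3 TPM in co-culture control and 39.1, 49.1 and 96.2 TPM in co-culture FFAs libraries. The library numbered 3 was highest in each of the 4 groups, and the 4 of them (79.7 ± 11.4 TPM) did not overlap the other 8 (42.9 ± 6.94 TPM). CLDN2 and CLDN4, like CLDN3, were lowest in the library numbered 3 in 4 of 4 HepG2 groups, with CLDN4 at 150 ± 20.3 TPM there and 204 ± 29.6 TPM in the other 8. CLDN2 did not overlap either, at 0.90 to 1.06 TPM in the libraries numbered 3 and 1.12 to 2.29 TPM in the other 8. CLDN3 overlapped, at 1.69 ± 0.693 TPM against 3.82 ± 1.69 TPM. In Caco-2 cells the library numbered 3 was lowest for CLDN2 and highest for CLDN12, OCLN and TJP1 in 3 of the 3 groups that have one. This split was made after the values were seen, and the share of all genes that part the same way was not counted. These ranks and ranges are therefore not read as a trait of the members. Without the libraries numbered 3, CLDN12 was still lower in Caco-2 cells (-0.36, limma, adjusted p = 0.00421).

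**Figure D4:**
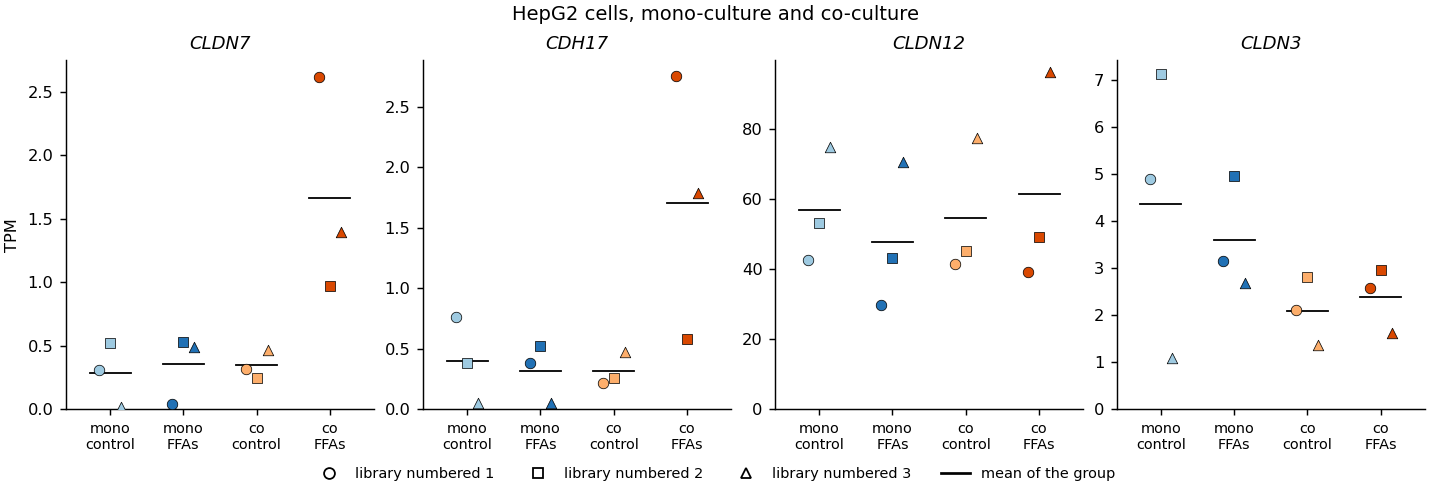
TPM of CLDN7, the gut marker CDH17, CLDN12 and CLDN3 in every HepG2 library by group, with marker shape for the replicate number and a line for the group mean; each axis starts at 0. CLDN7 and CDH17 are highest in the same co-culture FFAs library (2.62 and 2.75 TPM), and CLDN12 is highest in the library numbered 3 of every group (70.4 to 96.2 TPM).

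The co-culture effect was also compared between the lines in one fit of all 8 groups (limma, 16495 genes). No member passed the adjusted threshold, which 0.533% of all genes did (88 genes), and 3 members had an unadjusted p under 0.05, as did 14.6% of all genes tested. The effect in Caco-2 cells minus that in HepG2 cells was 1.00 ± 0.38 for CLDN3 (limma, adjusted p = 0.214) and -0.84 ± 0.36 for CLDN2 (limma, adjusted p = 0.288). CLDN7 was the last of the 3. Nothing is read from it, since its HepG2 values were low and raised only in co-culture FFAs. CLDN3 was higher in co-cultured Caco-2 and lower in co-cultured HepG2 libraries by its estimates. It passed without the third mono-culture control library of HepG2 cells (1.29, limma, adjusted p = 0.0295), which was the lowest of its group. It passed in no other fit with 1 library left out, where adjusted p reached 0.396 (limma). It also passed without all libraries numbered 3 (1.38, limma, adjusted p = 0.0218), a setting chosen after seeing the data.

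FFAs for 1 day moved none of the 9 genes past the adjusted threshold in either line. In Caco-2 cells, 0% of all genes were called and 3.99% (601 of 15081) had an unadjusted p under 0.05, among them 0 of 9 members (limma). The estimates of the members ran from -0.19 ± 0.17 for CLDN3 (limma, adjusted p = 0.990, 95% interval -0.56 to 0.18) to 0.21 ± 0.31 for CLDN2 (limma, adjusted p = 0.991, 95% interval -0.47 to 0.90), with a median of -0.02 against 0.01 over all genes tested. The estimate of CLDN2 turned to -0.0078 without the third mono-culture control library. CLDN7 again had the narrowest 95% interval, from -0.12 to 0.11.

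In HepG2 cells, 0% of all genes were called for FFAs and 3.49% (497 of 14255) had an unadjusted p under 0.05, among them 1 member (limma). That member was again CLDN7, which entered the fit only through co-culture FFAs, and nothing is read from it. The lowest estimate was -0.20 ± 0.11 for CLDN1 (limma, adjusted p = 1.00, 95% interval -0.45 to 0.04). CLDN1 was at 38.5, 28.2 and 27.5 TPM in mono-culture control, 26.2, 30.8 and 22.1 TPM in mono-culture FFAs, 33.1, 27.3 and 30.1 TPM in co-culture control and 25.6, 27.3 and 26.99 TPM in co-culture FFAs libraries, so control and FFAs libraries overlapped. The median over the members was -0.09 against 0.01 over all genes tested.

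Whether the FFAs effect depended on the culture was tested by the interaction. In Caco-2 cells 0% of all genes passed the adjusted threshold and 1.94% (292 genes) the unadjusted one of 0.05. The shares were 0% and 1.16% (166 genes) in HepG2 cells, with 0 members in any of these counts (limma). For the FFAs effect in Caco-2 cells minus that in HepG2 cells, 0.0182% of all genes passed (3 genes) and 2.99% had an unadjusted p under 0.05. CLDN7 was the 1 member among the latter, and nothing is read from it, since its HepG2 values were low and raised only in co-culture FFAs. By the selection rule of the study (one-way analysis of variance over the 4 groups of a line with an unadjusted p under 0.05, and at least a 1.2-fold difference between any pair of group means), 3.08% of 31100 genes were selected in Caco-2 cells, 0 of 9 members among them. In HepG2 cells 3.56% of 29942 genes were selected. CLDN7 was the 1 member among them, through the same co-culture FFAs libraries, and nothing is read from that either.

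**Figure D5:**
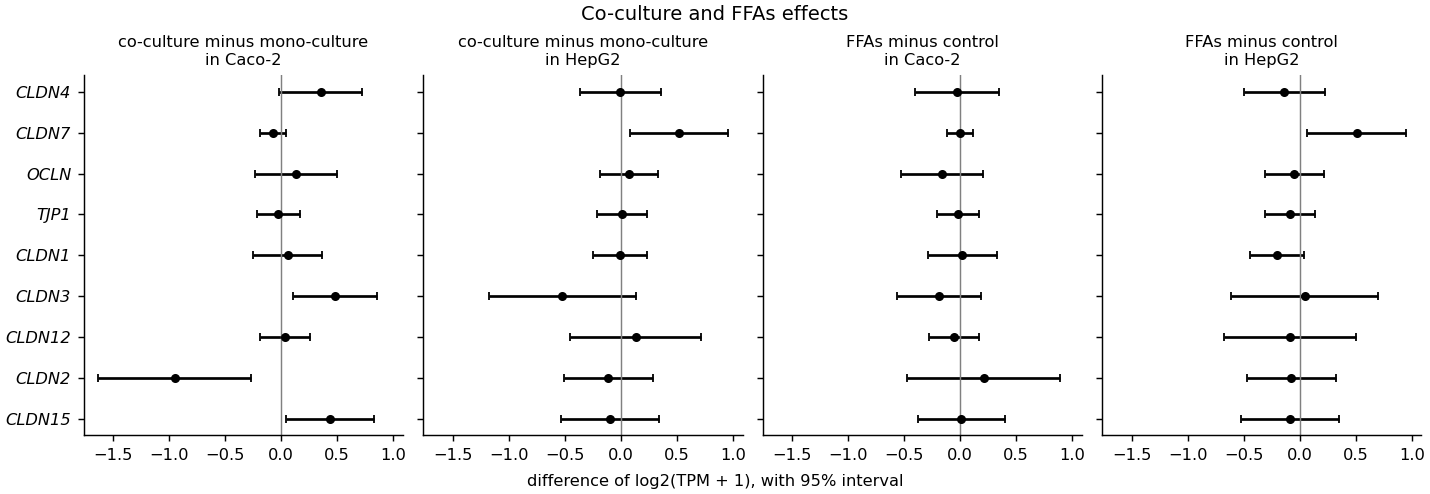
Difference of log2(TPM + 1) for each gene in 4 comparisons, co-culture minus mono-culture and FFAs minus control in each line; points are limma estimates and bars are 95% intervals. The intervals of CLDN2, CLDN3 and CLDN15 in the Caco-2 culture comparison exclude 0 before adjustment, and none passed after adjustment. CLDN7 entered the HepG2 comparisons only through co-culture FFAs, and its intervals there are not read.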

How the data were processed

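Poly(A) mRNA from 11 Caco-2 and 12 HepG2 libraries was amplified with a SMART-Seq kit and sequenced. The authors deposited 1 table of TPM per library. Their processing notes name Bowtie2 2.1.0, STAR 2.7.1a, RSEM 1.3.0 and GRCh38, and per the methods of the study reads of rRNA, tRNA and the mitochondrial genome were removed before mapping to Ensembl 98 genes. TPM are not counts, so the number of reads is unknown and tests for counts were not used.

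From the TPM, log2(TPM + 1) was fitted with limma 3.58.1 (eBayes with trend, R 4.3.3) for genes that averaged 1 TPM or more in any group of the fit, with Benjamini-Hochberg adjustment over all of them and a threshold of 0.05. The line difference and the comparisons of effects between lines used all 8 groups in one fit, and the others used the 4 groups of a line. The fit was tested on simulated data with 200 changed genes. The noise was drawn independently for each library, so that test does not cover the likeness between libraries of the same number. Groups and replicate numbers came from the labels. All 9 members are named in every library. Of each list of related genes, the 3 with the highest mean TPM in either line and any gene called for culture or FFAs are named, and other names are marked as added. The members and lists were chosen with earlier results of these data known. The scaffold list names 20 symbols, of which 19 were found. Tables and figures were made with Python 3.11.15, pandas 2.3.3 and matplotlib 3.10.9. Alternatives were a pseudocount of 0.1, quantile normalization, median-of-ratios scaling, no filter, no trend, a replicate block, a joint fit of both lines, and leaving out each library in turn. Leaving out the libraries numbered 3 was chosen after seeing the data.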

Additional observations from a re-analysis of the deposited data

How the results depend on the processing

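Under the alternatives tried, the 9 line differences kept their direction, and 7 of them kept their call throughout. CLDN2 lost it with quantile normalization, and CLDN15 lost it in the 2 settings given with its value. Median-of-ratios scaling lowered the median line difference of all genes by 0.187 and quantile normalization lowered it by 0.240, and calls higher in Caco-2 cells went from 63.1% of all calls to 52.5% and 50%. Leaving out 1 library at a time gave 8 to 9 called members and 12744 to 13025 called genes, against 13030 called in the main fit. It gave 6 to 7 members without overlap, the seventh being CLDN12 without the first mono-culture FFAs library of HepG2 cells. Quantile normalization and median-of-ratios scaling left 5 members without overlap, without CLDN1, and genes whose Caco-2 libraries were all higher went from 4711 to 3565 and 3655.

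For co-culture against mono-culture in Caco-2 cells, 0 genes were called, against 16 in the fit of both lines, 7 without the filter, 8 without the trend and 0 to 13 when 1 library was left out, most without the second co-culture control library, where the lone remaining library is assumed to vary like the other groups. In HepG2 cells 8 genes became 122 in the fit of both lines, 1 without the filter, 4 without the trend, with quantile normalization or without the libraries numbered 3, and 0 to 15 when 1 library was left out, 0 without the first mono-culture control and 15 without the third co-culture FFAs library. For FFAs in Caco-2 cells, 0 became 5 in the fit of both lines, 7 without the filter or the trend, and 0 to 17 with 1 library left out, 17 without the second co-culture control. In HepG2 cells 0 became 1 without the filter and 2 without the libraries numbered 3. For the interaction in Caco-2 cells, 0 became 10 without the filter, 7 without the trend, 1 without the libraries numbered 3 and 0 to 12 with 1 library left out, and in HepG2 cells 1 without the filter and 2 without the libraries numbered 3. No member was among these, and the cause of the changes was not tested.

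For the co-culture effect in Caco-2 minus HepG2 cells, 88 genes became 328 without the libraries numbered 3 and 33 to 246 with 1 library left out, 246 without the third mono-culture control of HepG2 cells. Called members went from 0 to 1 there and to 0 to 1 with 1 library left out, CLDN3 each time. For the FFAs effect between lines, 3 genes became 9 without the filter, 0 without the libraries numbered 3 and 3 to 19 with 1 library left out. With adjusted p, the selection rule of the study left 9 genes in Caco-2 and 1 in HepG2 cells, and 0 members. With 1 library left out it gave 0 to 1 members in Caco-2 cells (CLDN3 without the third mono-culture FFAs library) and 1 to 2 in HepG2 cells (CLDN7, and CLDN3 without the third mono-culture control). The FFAs estimate of CLDN2 in Caco-2 cells ranged from -0.0078, without the third mono-culture control, to 0.40 when 1 library was left out.

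A further fit took the replicate numbers as a replicate block. Same-numbered libraries correlated in their deviations at -0.093 to 0.312 in Caco-2 and 0.028 to 0.601 in HepG2 cells (7 of 15 and 15 of 18 pairs over 0.1). The medians were 0.088 and 0.305, against -0.119 and -0.226 between different numbers. In the 2 lines, 7 of 11 and 10 of 12 libraries were closest to their own number. Libraries of the same number were thus more alike, mostly in HepG2 cells. The main fits do not take the numbers as pairs, because the sources do not tie them to an experiment or chip. With the block, 60 and 492 genes were called for culture in Caco-2 and HepG2 cells and 835 for the difference between them, with 1, 0 and 2 members. These were CLDN2 for culture in Caco-2 cells (-1.11, limma, adjusted p = 0.0326), and CLDN3 (1.07, limma, adjusted p = 0.0290) and CLDN2 (limma, adjusted p = 0.0127) for the difference. The rule of the study selected 1 member in Caco-2 cells (CLDN2) and 1661 genes in HepG2 cells.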
